A study of Mus musculus with 4 samples.

Results

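Splicing factor genes are the 46 genes in the deposited count table whose symbols belong to the Srsf, Sf3a, Sf3b, Prpf, U2af and core Snrp families, chosen by symbol alone out of 55291 features. They were followed in RNA from mouse zygotes (fertilised eggs that have not yet divided) in a study of the histone variant H3.3 supplied by the mother. The 4 samples, 1 in each group, were an H3.3 MO control, H3.3 MO injected zygotes, an H3.3 S31A control and H3.3 S31A injected zygotes. MO is not spelled out in the labels and usually stands for morpholino, a synthetic antisense molecule, and S31A is the usual notation for serine replaced by alanine. The labels name no strain, mouse age, allele or time after fertilisation, and what the control zygotes received is not given in the sources used here.

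Each sample had 2 count columns, called libraries 1 and 2, and no source says whether these are separate pools of zygotes or repeat preparations. They were not counted as replicates, so no difference between samples below has a replicate check, and intervals cover counting error only. Depth was 5661621 to 13233371 counts per library, of which 0.214% to 0.268% fell on the 46 genes. Of 12 egg and zygote markers none was at 0 in any library, and their summed level was 10902 to 16978 CPM (counts scaled by library size and TMM factor). Of 14 cumulus and granulosa cell markers 11 or 12 were at 0 in each library and the list summed to 59.3 to 209 CPM, highest in library 1 of the S31A injected sample. Sperm markers were at 0 for 5 of 6 genes in every library, and blood and immune markers for 5 or 6 of 6. The MO control libraries had 14895 and 15156 genes detected, the MO injected 13159 and 13359, the S31A control 11372 and 11768 and the S31A injected 11447 and 11791. Mitochondrial genes took 5.23% to 5.55%, 3.47% to 4.99%, 9.65% to 10.4% and 7.13% to 9.59% of the counts in the same order. The part of other cells, genes detected and mitochondrial share in the results was not tested.

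Splicing removes introns from pre-mRNA on the spliceosome, which is built from small nuclear RNAs with their proteins. SR proteins and U2AF help to mark exons and splice sites, the SF3A and SF3B complexes hold the U2 particle on the branch site, a ring of Sm proteins forms the core of the U1, U2, U4 and U5 particles, and many PRPF proteins sit in the tri-snRNP or drive the rearrangements of the catalytic steps. The egg stores mRNA for such factors, and the zygote begins to transcribe its own genome. In bulk RNA, fewer cells and less RNA per cell cannot be told apart.

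Members of every class were present in the zygote, at levels from 0 to 539 CPM in a library. Of the 46 genes, 35 had counts in all 8 libraries and 37 to 43 were detected in each. Summed over the 46 genes, the level was 2667 and 2120 CPM in the MO control, 2165 and 2382 CPM in the MO injected, 2416 and 2334 CPM in the S31A control and 2572 and 2706 CPM in the S31A injected libraries. The ranges of the MO injected and MO control libraries overlapped, while both S31A injected libraries lay above both S31A control libraries. The MO control libraries lay farther apart from each other than any S31A injected library from any S31A control library.

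**Figure D1:**
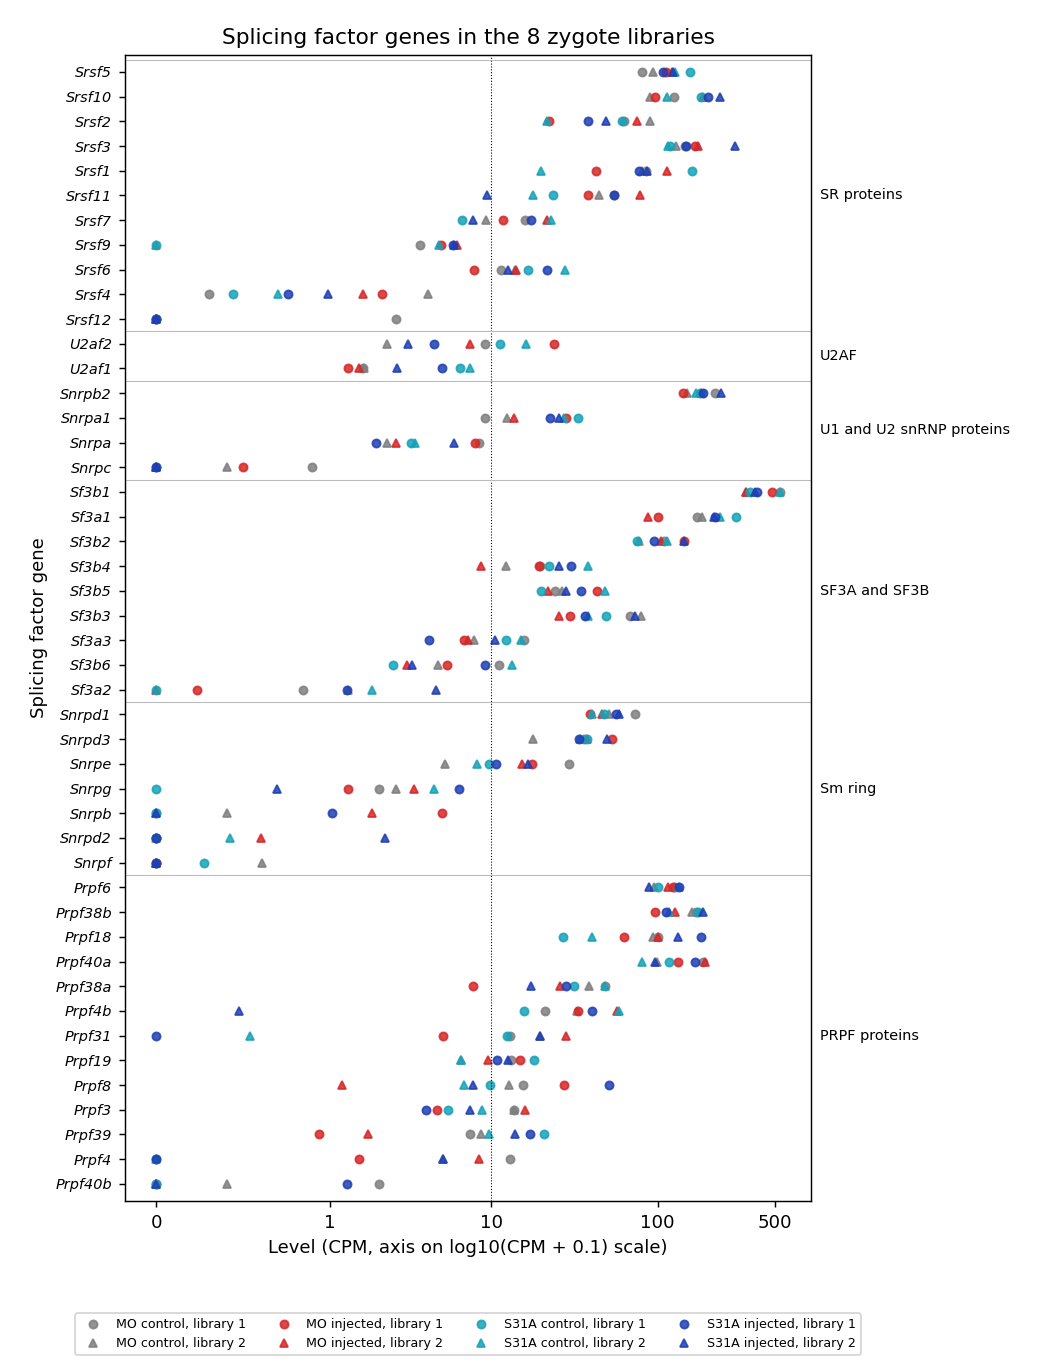
Level of each of the 46 splicing factor genes in CPM, on a log10 scale with 0.1 added. Circles are library 1 and triangles library 2 of each sample, and the dotted line marks 10 CPM; the 14 genes that lie below it in the summed samples in all comparisons include Snrpf, Snrpb, Snrpd2 and Snrpc.

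Compared per kilobase of deposited gene length, by counts on each gene itself and not on copies of it, Snrpb2 was the highest. It encodes the B'' protein of the U2 particle and had a median over the libraries of 63.3 CPM per kilobase (49.7 to 84.3). Its range did not overlap that of the next gene. Sf3b1, the SF3B subunit that clasps the branch site helix, followed at a median of 33.9 (29.6 to 47.4), then Sf3a1 at 32.8 (14.2 to 47.5), Prpf6 at 31.01 (22.9 to 34.7), Srsf5 at 29.2 (20.3 to 39.2) and Snrpd1 at 24.1 (19.3 to 35.5), all in CPM per kilobase. From Sf3b1 downwards each gene's range over the libraries overlapped that of its neighbour, so the order of neighbouring genes below Snrpb2 is not resolved. At the other end Prpf40b, Snrpf, Snrpd2, Srsf12 and Snrpc had a median of 0, with 5, 6, 5, 7 and 5 of the 8 libraries at 0. Counts on gene copies, given below, could change this order. With its copies Snrpf read 52.2 to 177 CPM in a library.

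The first comparison asked how the zygote's RNA differed with the H3.3 MO. Splicing factor genes as a class sat near no change: over the 31 measured genes, those reaching 10 CPM in a summed sample of the pair, the median log2 ratio of injected to control was -0.05, beside 0.03 over all 8110 measured genes. The ratio was above 0 for 15 genes and below it for 16, and it was above 0 for 52% of all measured genes. At least 2-fold higher were 2 genes (U2af2 and Snrpa1), or 6.45% of those measured, beside 11.3% of all measured genes. At least 2-fold lower were 2 genes (Prpf38a and Sf3b3), or 6.45%, beside 12.5%. The injected libraries lay wholly above the control libraries for 5 genes and wholly below for 6, beside 19.2% and 21.3% of all measured genes. Both conditions were met by Snrpa1 among the higher genes and by Prpf38a and Sf3b3 among the lower ones, beside 7.29% and 10.4% of all genes. Without MO injected library 1 only 1 gene was 2-fold higher, beside 7.99% of all genes at that setting. Without MO injected library 2 or MO control library 2 there were 5 lower, beside 22.7% and 11.98% of all genes.

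The second comparison set H3.3 S31A injected zygotes against their own control, and again the class sat near no change. The median log2 ratio of the 30 measured genes was -0.01, beside 0.02 over 8191 genes. It was above 0 for 15 genes and below it for 15, and above 0 for 51% of all genes. At least 2-fold higher were Prpf18 and Prpf8, 6.67% of the measured members beside 14.1% of all genes, and at least 2-fold lower was U2af2, 3.33% beside 16.1%. The libraries lay wholly apart for 6 genes upwards and 6 downwards, beside 19.8% of all genes in each direction. Prpf18 and U2af2 met both conditions, beside 9.19% and 11.4% of all genes. In both comparisons the members' share past 2-fold was below the share of all genes, but it rested on 1 or 2 genes in each direction. Members and all genes were not matched for level. Leaving out S31A injected library 1, S31A injected library 2 or S31A control library 1 gave 4, 2 or 3 genes lower. The shares of all genes lower were then 20.8%, 21.1% and 18.6%. Leaving out S31A control library 1 gave 4 higher, beside 18.5% of all genes.

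**Figure D2:**
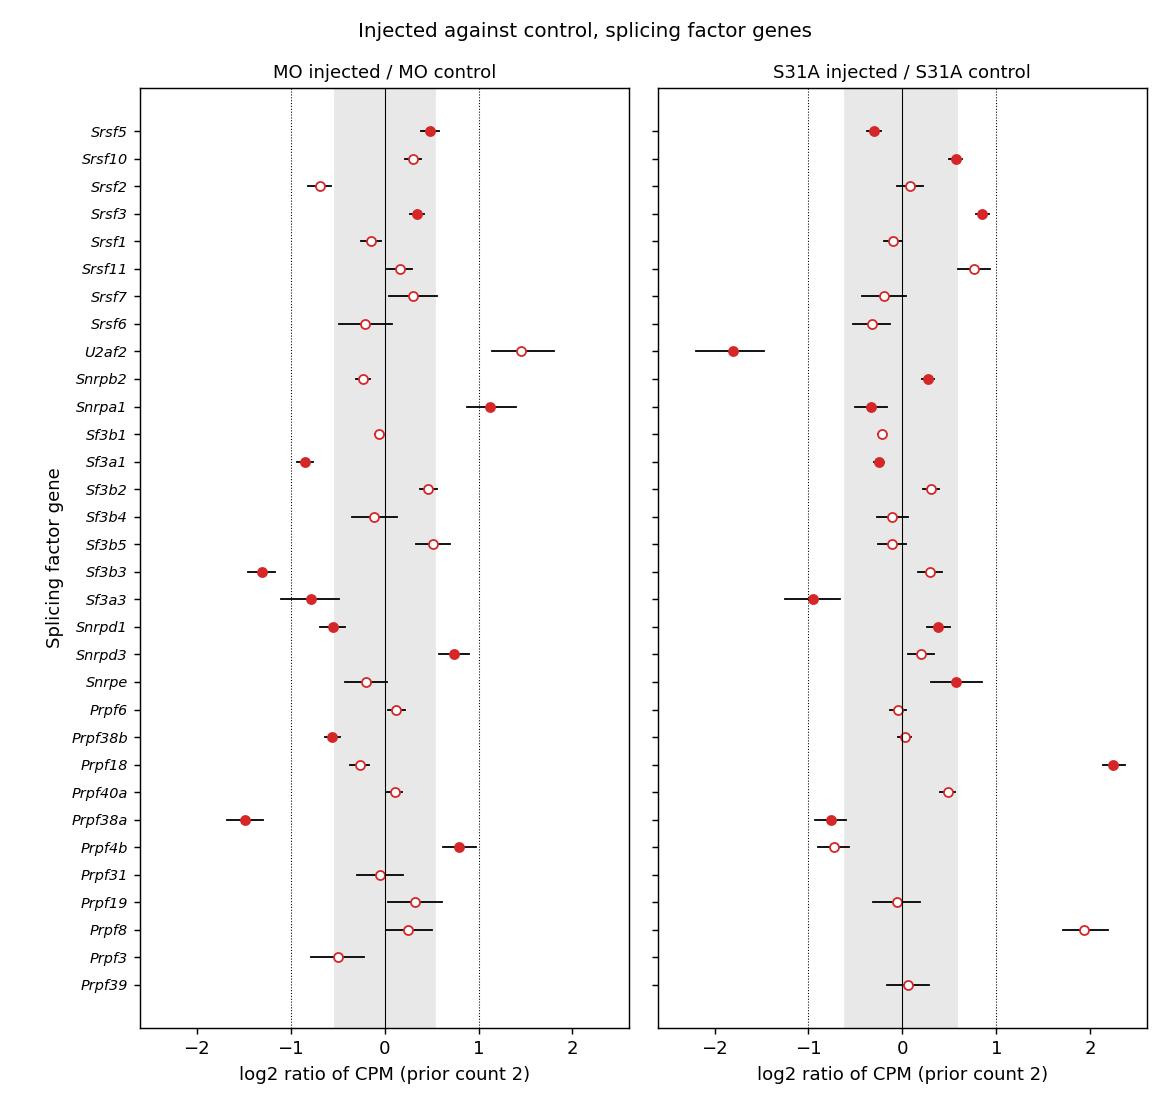
Log2 ratio of injected to control CPM for each measured splicing factor gene, MO on the left and S31A on the right. Lines are exact 95% counting intervals, filled points mark genes whose injected libraries lie wholly on 1 side of the control libraries, dotted lines mark 2-fold, and the grey band is the interquartile range of all measured genes (-0.52 to 0.54 for MO, -0.61 to 0.58 for S31A); Prpf18 stands farthest to the right of any member.

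The same genes were then read across both injections. Of 29 genes measured in both, 7 were higher in both, 7 lower in both and 15 went opposite ways, so 48.3% had the same sign, beside 55% of 7320 genes. No gene was at least 2-fold apart in the same direction in both, while 4.43% of all genes were.

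SR proteins bind exonic enhancers through RNA recognition motifs and recruit U1 and U2 particles through their arginine-serine domains. Of 11 such genes 8 were measured in each injection comparison, and none was 2-fold apart in either. Among all measured genes 11.3% were that far up and 12.5% that far down in the MO comparison. In the S31A comparison these shares were 14.1% and 16.1%. The count depended on the libraries. Without S31A injected library 1 the S31A log2 ratio was 1.27 for Srsf3 and -1.16 for Srsf11, and without library 2 that of Srsf11 was 1.38. Srsf1, Srsf2 and Srsf7 also passed 2-fold in this way, as given below, while Srsf5, Srsf6 and Srsf10 did not. Srsf3, a small SR protein that also acts in mRNA export, read 145 and 129 CPM in the MO control and 167 and 173 CPM in the MO injected libraries. In the other experiment it read 119 and 116 CPM in the S31A control and 147 and 291 CPM in the S31A injected libraries. Injected libraries were above control libraries in both experiments, with log2 ratios of 0.34 (95% counting interval 0.27 to 0.42) and 0.85 (0.78 to 0.92). Without library 2 of the S31A injected sample the S31A ratio was 0.30.

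Srsf5, an SR protein gene highest of its class per kilobase, went opposite ways. It read 80.9 and 93.9 CPM in the MO control and 112 and 121 CPM in the MO injected libraries, a log2 ratio of 0.48. The S31A control libraries held 157 and 127 CPM and the injected ones 107 and 124 CPM, a log2 ratio of -0.30. Neither pair of samples overlapped, and the difference between the experiments was not tested. With the counts of its copy added, the log2 ratios of Srsf5 were 0.61 with MO and -0.41 with S31A, and the S31A libraries then overlapped. Srsf2, which stays in the nucleus and marks nuclear speckles, had the largest ratio of the class with MO, -0.69, yet its libraries overlapped (63.1 and 89.9 CPM in the control and 22.4 and 74.8 CPM in the injected sample). In the S31A experiment Srsf2 read 61.2 and 21.6 CPM in the control and 38.03 and 49.2 CPM in the injected libraries. Without MO injected library 1 or 2 the MO ratio of Srsf2 was -0.01 or -1.75, and without S31A control library 1 its S31A ratio was 1.02.

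Srsf1, the founding SR protein, was among the steadiest members by its summed counts, with log2 ratios of -0.15 and -0.10. Its libraries were not steady: they read 84.5 and 80.6 CPM in the MO control, 42.9 and 114 CPM in the MO injected, 159 and 20.05 CPM in the S31A control and 77.7 and 86.3 CPM in the S31A injected sample. The lowest and the highest value belonged to the same sample, the S31A control, and without its library 1 the S31A log2 ratio of Srsf1 was 2.05. Srsf7 was alike, at 15.98 and 9.37 CPM in the MO control, 11.8 and 21.6 CPM in the MO injected, 6.63 and 23.03 CPM in the S31A control and 17.4 and 7.81 CPM in the S31A injected sample, with log2 ratios of 0.30 and -0.19, the latter 1.02 without S31A control library 2. Srsf4, Srsf9 and Srsf12 stayed below 10 CPM in every sample.

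U2AF is a pair of proteins that reads the end of the intron, U2af2 the pyrimidine tract and U2af1 the AG at the 3' splice site. U2af2, at chromosome 7 from 5062143 to 5079938 on the plus strand (mm10), was the only member at least 2-fold apart in both experiments, in opposite directions. It read 9.13 and 2.302 CPM in the MO control and 23.8 and 7.42 CPM in the MO injected libraries, overlapping ranges with a summed ratio of 2.73-fold (log2 1.45, interval 1.14 to 1.80). The S31A control held 11.3 and 16.3 CPM and the S31A injected sample 4.52 and 3.104 CPM, which is 3.49-fold lower (log2 -1.80, interval -2.20 to -1.47) with no overlap. These were low levels, from 14 to 311 counts in a library. Without library 1 of the MO injected sample the MO log2 ratio was 0.18, and without library 2 of the MO control 0.94, both under 2-fold; without library 1 of the MO control it was 2.87.

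In the group of U1 and U2 proteins, the members are Snrpa and Snrpc of U1 and Snrpa1 and Snrpb2 of U2. Of these 4 only the U2 pair was measured. The U1 gene Snrnp70 is not a member by its symbol and was read, and measured, among the other splicing genes. Snrpa1, at chromosome 7 from 66059003 to 66074587 on the plus strand, read 9.24 and 12.5 CPM in the MO control and 28.3 and 13.6 CPM in the MO injected libraries, 2.18-fold higher (log2 1.13, interval 0.87 to 1.40). The higher injected value was that of library 1, and without it the log2 ratio was 0.34; without MO control library 1 it was 0.87, and from the mean of log2 CPM 0.86. In the S31A experiment it read 33.2 and 27.5 CPM in the control and 22.6 and 25.6 CPM in the injected libraries, a log2 ratio of -0.33. Snrpb2 was steady, at 221 and 150.4 CPM in the MO control, 142 and 182 CPM in the MO injected, 179.9 and 169.6 CPM in the S31A control and 186 and 241 CPM in the S31A injected libraries, with log2 ratios of -0.23 and 0.28.

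SF3A and SF3B had 7 of 9 genes measured, and with MO 3 of the 7 (Sf3b3, Sf3a1 and Sf3a3) had injected libraries wholly below the control libraries, beside 21.3% of all genes. Sf3b3, a large scaffold subunit of SF3B at chromosome 8 from 110810239 to 110846787 on the minus strand, read 67.8 and 79.6 CPM in the MO control and 29.9 and 25.7 CPM in the MO injected libraries. The injected sample was 2.48-fold lower (log2 -1.31, interval -1.46 to -1.17), and its libraries lay close together. S31A gave no such separation for Sf3b3, with 48.7 and 37.98 CPM in the control and 36.8 and 72.7 CPM in the injected libraries.

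Sf3a1, the SF3A subunit that touches U1 as well as U2, was lower in both experiments without overlap. It read 171 and 185 CPM in the MO control and 100.1 and 87.1 CPM in the MO injected libraries, a log2 ratio of -0.85 (interval -0.93 to -0.76). The S31A libraries were closer, 292 and 235 CPM in the control and 221 and 218 CPM in the injected sample, log2 -0.25. Sf3a3, another SF3A subunit, read 15.8 and 7.89 CPM in the MO control, 6.89 and 7.204 CPM in the MO injected, 12.2 and 15.03 CPM in the S31A control and 4.18 and 10.6 CPM in the S31A injected libraries. Its log2 ratios were -0.78 and -0.95, the injected libraries being lower in both experiments. Without MO control library 1 its MO ratio was -0.13 and without MO control library 2 -1.10, and over left-out libraries its S31A ratio ran from -1.71 to -0.41. The MO ratio of Sf3a1 was -1.05 without MO injected library 1.

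Sf3b1 was the most abundant member in CPM and among the steadiest. It read 536 and 336 CPM in the MO control and 479.7 and 338 CPM in the MO injected libraries, and 358 and 539 CPM in the S31A control and 391 and 381 CPM in the S31A injected libraries. Its log2 ratios were -0.06 and -0.22, smaller than the gap between the libraries of the MO control. Sf3b4, which binds the pre-mRNA next to the branch site, had log2 ratios of -0.11 and -0.11, and the larger of them in size was below the larger of any other member measured in both experiments. It read 19.7 and 12.3 CPM in the MO control, 19.4 and 8.62 CPM in the MO injected, 22.3 and 37.98 CPM in the S31A control and 30.3 and 25.5 CPM in the S31A injected libraries, and the libraries of the injected and control samples overlapped. Its MO ratio was -0.98 without MO injected library 1 and 0.22 with its copy's counts added.

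PRPF genes encode a mixed group of proteins, named after yeast mutants with defects in pre-mRNA processing. With MO 10 of 13 were measured and 1 was 2-fold lower, beside 12.5% of all genes, and with S31A 9 were measured and 2 were 2-fold higher, beside 14.1%. Prpf18, a factor of the second catalytic step, lies at chromosome 2 from 4622058 to 4652113 on the minus strand. It read 27.00 and 40.3 CPM in the S31A control and 183 and 132 CPM in the S31A injected libraries. The injected sample was 4.74-fold higher (log2 2.25, interval 2.13 to 2.36), the largest ratio of any measured member in the 2 experiments, and it stayed at 1.92 to 2.61 on the log2 scale whichever library was left out. The MO control libraries held 101 and 93.2 CPM and the MO injected ones 62.5 and 101 CPM, overlapping, log2 -0.26. Both S31A control libraries were below all the others, and both S31A injected libraries above them.

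Prpf38a, which joins the spliceosome before its activation, lies at chromosome 4 from 108563172 to 108579336 on the minus strand. It was lower without overlap in both experiments, from 48.5 and 38.96 to 7.81 and 26.1 CPM with MO and from 31.6 and 48.1 to 28.4 and 17.3 CPM with S31A. The MO difference was 2.79-fold (log2 -1.48, interval -1.68 to -1.30) and the S31A log2 ratio -0.76; without MO injected library 1 the MO log2 ratio was -0.80, and without MO injected library 2 it was -2.53. Without S31A injected library 1 the S31A log2 ratio was -1.25.

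Prpf8, the protein that cradles the catalytic RNA core, lies at chromosome 11 from 75486816 to 75509449 on the plus strand. Its libraries read 15.6 and 12.8 CPM in the MO control, 27.6 and 1.201 CPM in the MO injected, 9.81 and 6.86 CPM in the S31A control and 50.99 and 7.81 CPM in the S31A injected sample. The S31A ratio of 3.82-fold (log2 1.93) rested on library 1 of the injected sample: without it the log2 ratio was -0.13. Prpf6, which bridges the U5 and U4/U6 particles, was steady at 127 and 95.4 CPM in the MO control, 124 and 115 CPM in the MO injected, 101 and 134 CPM in the S31A control and 134 and 88.2 CPM in the S31A injected libraries, with log2 ratios of 0.13 and -0.05. Prpf39 fell outside the MO comparison because it stayed under 10 CPM, at 7.498 and 8.71 CPM in the control and 0.843 and 1.75 CPM in the injected libraries. Prpf4, of the U4/U6 particle, had 0 counts in both S31A control libraries and 13.04 and 5.096 CPM in the MO control libraries.

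**Figure D3:**
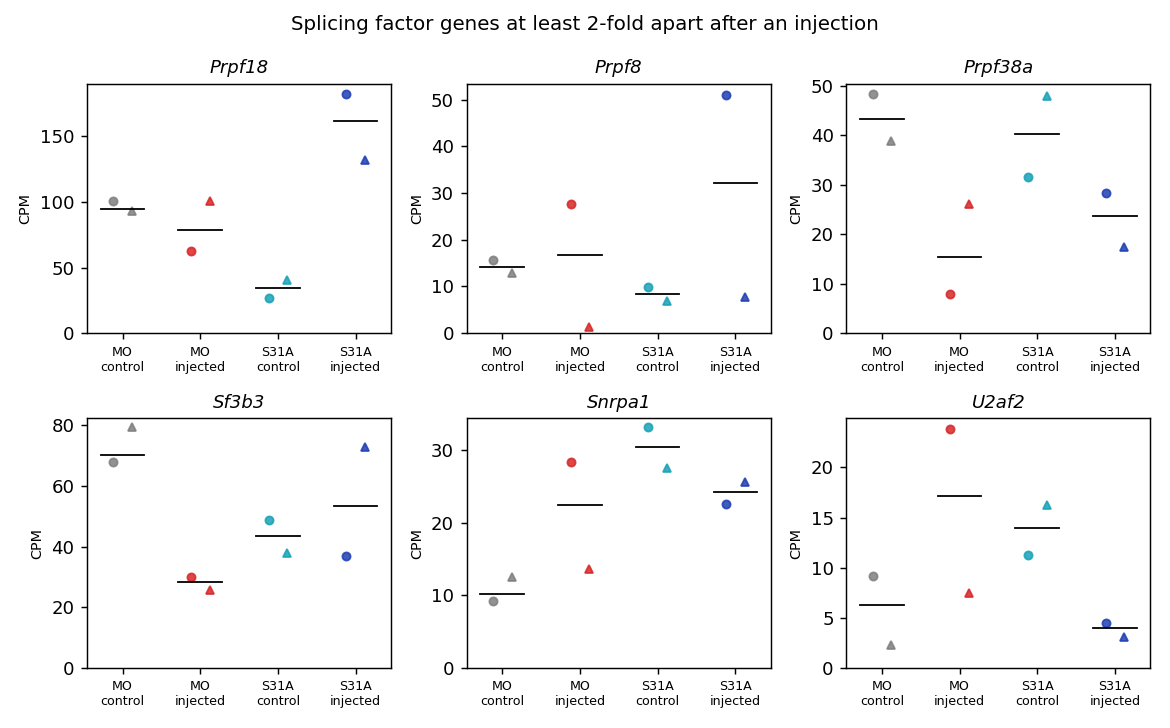
Level in CPM of the 6 splicing factor genes at least 2-fold apart in an injection comparison, in each library (circles library 1, triangles library 2) with the level of the summed sample as a line. Prpf18 is high in both S31A injected libraries, while Prpf8 is high in library 1 alone.

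Sm proteins form a ring of 7 around the small nuclear RNAs, and a working spliceosome needs each of them. Their own genes were unevenly counted: only Snrpd1, Snrpd3 and Snrpe were measured, and Snrpf had 3 counts in all 8 libraries together. Snrpd1 read 72.9 and 51.3 CPM in the MO control, 39.5 and 46.1 CPM in the MO injected, 47.7 and 40.3 CPM in the S31A control and 56.1 and 58.2 CPM in the S31A injected libraries, lower with MO (log2 -0.55) and higher with S31A (log2 0.38) without overlap. Snrpd3 read 36.3 and 17.9 CPM in the MO control and 52.9 and 37.7 CPM in the MO injected libraries, a log2 ratio of 0.74. For Snrpd3 the S31A libraries overlapped, with 37.6 and 34.3 CPM in the control and 33.8 and 49.99 CPM in the injected sample. Snrpe read 29.3 and 5.26 CPM in the MO control, 17.5 and 15.3 CPM in the MO injected, 9.72 and 8.26 CPM in the S31A control and 10.7 and 16.6 CPM in the S31A injected libraries, with log2 ratios of -0.20 and 0.57. The MO ratio of Snrpe was 1.68 without MO control library 1 and 0.38 from the mean of log2 CPM, the other direction in both cases, and that of Snrpd3 was 1.41 without the same library.

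Copies of the ring's genes held more counts than the genes themselves. Copies were transcripts in GENCODE M21 that matched a member's coding sequence at 85% identity or more over 80% or more of its length, most of them processed pseudogenes, which are intronless copies of an mRNA pasted back into the genome. Of the 46 genes 19 had copies with a row in the count table, 52 in all, and 10 had more counts on their copies than on themselves. Of the counts on Sm ring genes and their 16 copies, 82.2% fell on the copies, 40115 against 8714 on the genes, with 80.7% to 84.99% in each of the 8 libraries. The share was 71.8% for U2AF, 41.2% for the U1 and U2 proteins, 14.1% for SR proteins, 7.52% for SF3A and SF3B and 1.69% for PRPF genes.

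**Figure D4:**
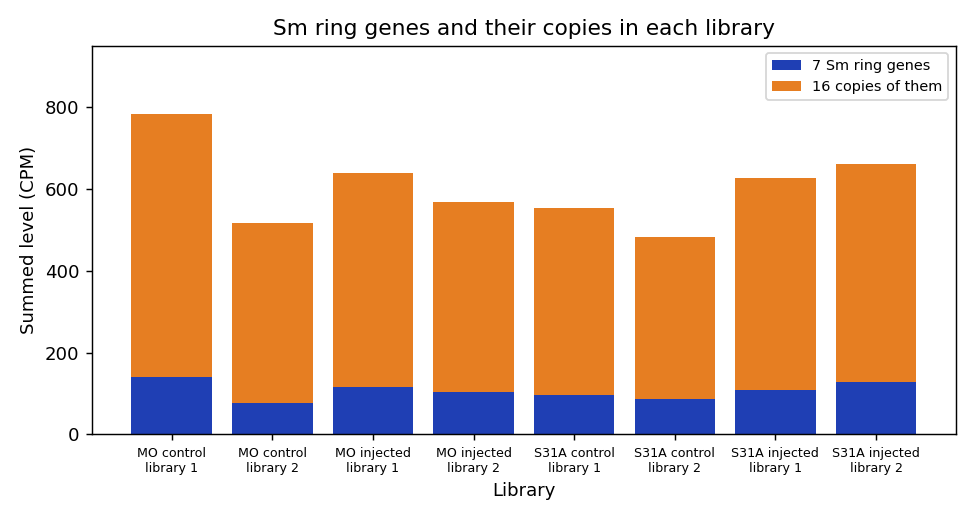
Summed level in CPM of the 7 Sm ring genes (blue) and of their 16 copies (orange), stacked, in each of the 8 libraries. The copies make up most of every bar, 80.7% to 84.99% of the counts.

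Sequences of Snrpf, of its copy that held most counts and of Snrpg show how alike a ring gene and its copy are. They are the coding sequences without stop codon, from GENCODE M21 on mm10, in lower case, and the capitals mark the bases at which a copy differs from its gene.
Snrpf: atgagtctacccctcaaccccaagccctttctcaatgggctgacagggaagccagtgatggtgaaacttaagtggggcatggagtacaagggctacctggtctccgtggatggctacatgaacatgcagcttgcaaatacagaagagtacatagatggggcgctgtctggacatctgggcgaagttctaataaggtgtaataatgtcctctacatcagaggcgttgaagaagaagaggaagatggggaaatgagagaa
Gm13092: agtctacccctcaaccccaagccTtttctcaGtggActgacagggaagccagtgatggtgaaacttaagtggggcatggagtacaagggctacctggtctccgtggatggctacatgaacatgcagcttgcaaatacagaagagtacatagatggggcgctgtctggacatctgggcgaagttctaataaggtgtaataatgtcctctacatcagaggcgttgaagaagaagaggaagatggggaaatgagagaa
Snrpg: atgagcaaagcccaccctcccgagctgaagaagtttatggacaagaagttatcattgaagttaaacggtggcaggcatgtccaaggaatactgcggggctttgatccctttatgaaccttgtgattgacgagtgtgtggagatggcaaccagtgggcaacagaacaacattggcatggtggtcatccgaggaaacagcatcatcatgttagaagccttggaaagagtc

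Gm13092, on chromosome 4 from 150315177 to 150315436 on the minus strand and inside Rere on its opposite strand, differed from Snrpf by C27T, A35G and G39A, counted from 1 at the first base of the start codon of Snrpf. Its aligned stretch begins at the second codon. It held 9992 counts against 3 for Snrpf, whose coding sequence of 258 bases is split over 4 exons. By library the copy had 1625 and 586 counts in the MO control, 2057 and 1155 in the MO injected, 1067 and 594 in the S31A control and 1645 and 1263 in the S31A injected sample. Gm8186, on chromosome 17 from 26098991 to 26099221 on the minus strand, is identical to the Snrpg sequence over its 228 bases and held 6545 counts against 213. Between 2 sequences that are identical, a short read cannot say which it came from unless it reaches beyond the coding part.

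Among the other copies with more counts than their gene were Gm14277, inside Rbl1 on its opposite strand, with 14632 counts against 4092 for Snrpd1, Gm7935 with 4364 against 1852 for Sf3b4, and Gm10232 with 2591 against 294 for U2af1. Snrpb2 had 14757 counts and its copy Gm8162, inside Tmem45b on the same strand, 11577. Per the submitters' processing notes the reads were aligned with Bowtie2, which does not split a read across an intron, and how reads with several matches were counted is not given in the sources used here. Prpf18 had 1 copy in the annotation, with no row in the count table used here. Whether the counts on copies came from RNA of the members, of the copies or of the genes around them was not tested.

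**Figure D5:**
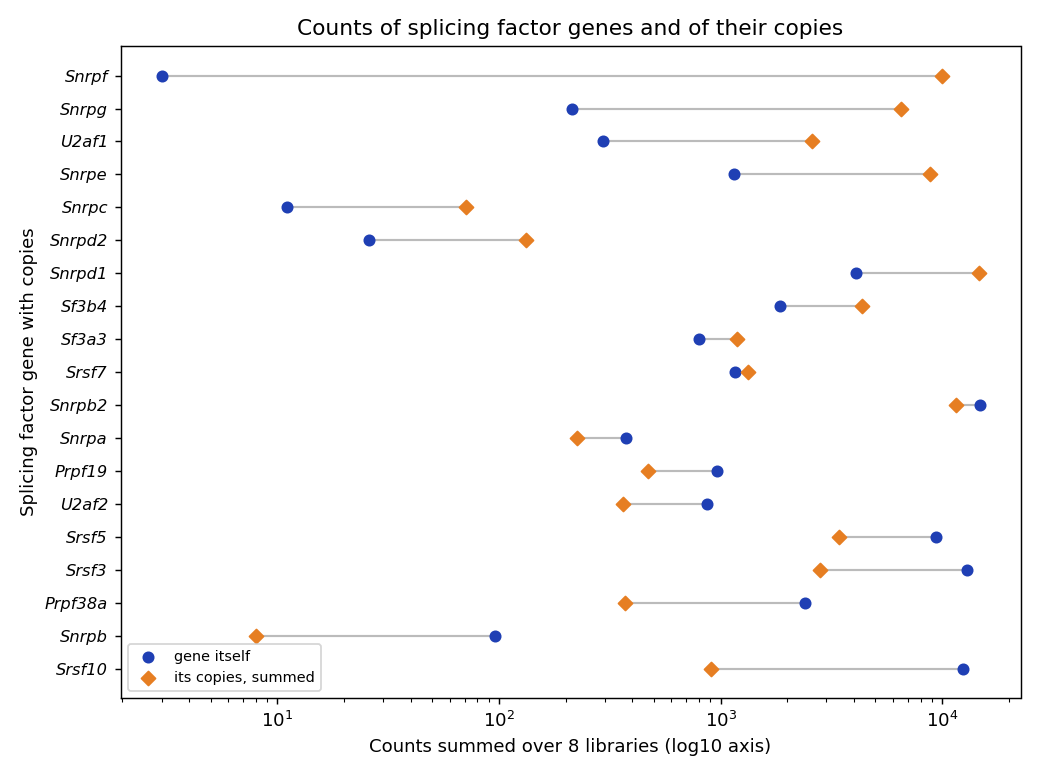
Counts summed over the 8 libraries (log10 axis) for the 19 splicing factor genes with copies in the count table, the gene itself as a blue circle and its copies summed as an orange diamond. For 10 genes the diamond lies to the right, from Snrpf (3 against 9992) to Srsf7 (1166 against 1325).

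Adding each copy's counts to its gene, an alternative chosen after seeing the data, brought 35 genes into the MO comparison. Of these 1 was at least 2-fold higher and 2 were lower, beside 11.2% and 12.5% of all genes. The same step brought 33 into the S31A comparison, with 2 higher and 3 lower, beside 14.1% and 16.2%. Snrpf with its copies read 177 and 96.7 CPM in the MO control, 158 and 126 CPM in the MO injected, 99.8 and 52.2 CPM in the S31A control and 140.3 and 135 CPM in the S31A injected libraries. In this form Snrpf was higher with S31A without overlap (log2 0.88) and overlapped with MO (log2 0.05). Snrpg with its copies gave log2 0.17 with MO and 0.52 with S31A. Snrpd1 with its copy gave log2 -0.43 with MO and 0.13 with S31A, without overlap in either. U2af1 with its copies, read at 81.01 and 51.3 CPM in the S31A control and 37.5 and 25.5 CPM in the S31A injected libraries, was lower (log2 -1.02), as was Sf3a3 (log2 -1.17). U2af2 with its copies stayed 2-fold lower with S31A (log2 -1.11) and dropped under 2-fold with MO (log2 0.94).

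The 2 control samples also differed from each other, and the S31A control had fewer genes detected and a higher mitochondrial share in both libraries. Setting the S31A control against the MO control, 32 genes were measured, with a median log2 ratio of 0.06 beside 0.05 over 8266 genes, and 18 ratios were above 0, beside 52.4% of all genes. Snrpa1 (log2 1.57) and U2af2 (1.15) were at least 2-fold higher in the S31A control, beside 13.6% of all genes. Prpf18 (-1.47), Prpf31 (-1.28), Srsf11 (-1.25) and Snrpe (-1.08) were at least 2-fold lower, beside 16.2%. Without MO control library 1 the ratio of Snrpe turned to 0.80, that of Prpf31 without S31A control library 2 was -0.32, and that of U2af2 without S31A control library 2 was 0.82 and without MO control library 2 was 0.65. Prpf18 stayed past 2-fold whichever of the 4 control libraries was left out (-1.84 to -1.25). Without S31A control library 1 there were 5 genes higher and 7 lower, beside 16.3% and 20.5% of all genes. Without MO control library 1 there were 4 higher, beside 16.4%. Libraries lay wholly apart for 7 genes upwards and 9 downwards, beside 21.2% and 25.2% of all genes. Snrpa1 and U2af2 upwards, and Prpf18, Prpf31 and Srsf11 downwards, were also 2-fold apart, beside 9.67% and 14.5% of all genes.

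The libraries of a single sample also differed. At least 2-fold apart between library 1 and library 2 were 4 of 32 measured members in the MO control (12.5%, beside 24.7% of all genes), 10 of 30 in the MO injected sample (33.3%, beside 39.8%), 9 of 30 in the S31A control (30%, beside 40.4%) and 6 of 30 in the S31A injected sample (20%, beside 41%). Prpf31 and Prpf4b were examples. Prpf31 read 12.4 and 0.264 CPM in the S31A control and 0 and 19.6 CPM in the S31A injected libraries. Prpf4b read 15.9 and 58.7 CPM in the S31A control and 40.7 and 0.214 CPM in the S31A injected libraries. Over left-out libraries the S31A log2 ratio of Prpf4b ran from -6.89 to 0.56.

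A fit over the libraries describes these libraries and does not test the conditions, since their spread may be technical. With edgeR's quasi-likelihood test and Benjamini-Hochberg adjustment over 8981 genes, 0 of the 32 members tested passed in any comparison, beside 0.0334% of all genes for MO, 0.0445% for S31A and 0% between controls. At an unadjusted p under 0.05 there were 2 members for MO, 2 for S31A and 1 between controls, beside 4.4%, 8.09% and 7.94% of all measured genes. Prpf18 had the smallest adjusted p of the members for S31A, 0.307 by edgeR, with both injected libraries above both control libraries. DESeq2 passed 0 of 32 members for MO, 1 for S31A (Prpf18, adjusted p = 0.000526) and 0 between controls, beside 0.679%, 4.41% and 3.16% of all genes.

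Other genes of the splicing machinery, 126 in 11 lists, were read in the same way, with 92 measured in each comparison. With MO 7 were at least 2-fold higher (7.61%, beside 11.3% of all genes) and 8 lower (8.70%, beside 12.5%), median log2 0.04. With S31A 7 were higher and 7 lower (7.61% each, beside 14.1% and 16.1%), median 0.03. The MO count of lower genes was 16 when MO injected library 2 was left out, and the S31A count 12 when S31A injected library 1 was. The shares of all genes lower were then 22.7% and 20.8%. With MO 4 of the 92 were past 2-fold upwards without overlap and 7 downwards, beside 7.29% and 10.4% of all genes. With S31A these counts were 5 and 7 of 92, beside 9.19% and 11.4%. Among the genes that met both conditions, Tial1, an RNA-binding regulator of 5' splice site choice, was higher in both experiments. It read 5.22 and 2.14 CPM in the MO control and 20.4 and 8.84 CPM in the MO injected libraries (log2 1.998), and 4.58 and 2.73 CPM in the S31A control and 23.5 and 8.03 CPM in the S31A injected libraries (log2 2.18). Without injected library 1 these ratios were 1.10 and 1.08, and without MO control library 1 the MO ratio of Tial1 was 2.85.

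Snrnp40, a U5 protein, was lower in both. It read 29.7 and 24.2 CPM in the MO control and 2.91 and 18.01 CPM in the MO injected libraries (log2 -1.53), and 74.5 and 85.9 CPM in the S31A control and 21.7 and 29.9 CPM in the S31A injected libraries (log2 -1.66). Its MO ratio was -0.64 without MO injected library 1 and -3.22 without library 2. Zmat2, a tri-snRNP factor, was lower in both as well, with log2 ratios of -1.29 and -1.80. Of all 7320 genes measured in both experiments, 4.43% were at least 2-fold apart the same way in both, whether or not their libraries overlapped. The MO ratio of Zmat2 was -0.72 without MO injected library 1, -0.998 without MO control library 2 and -2.10 without MO injected library 2. Aqr, a helicase of the intron-binding complex, went from 29.02 and 15.1 to 9.04 and 6.88 CPM with MO and from 9.44 and 17.3 to 48.5 and 42.8 CPM with S31A, opposite ways without overlap. The MO ratio of Aqr was -0.84 without MO control library 1. Prmt5, the arginine methyltransferase that modifies Sm proteins, also went opposite ways, with log2 ratios of 1.26 and -1.01. It read 9.67 and 14.6 CPM in the MO control, 27.2 and 26.96 CPM in the MO injected, 20.9 and 17.9 CPM in the S31A control and 13.98 and 3.96 CPM in the S31A injected libraries. Its MO ratio was 0.92 without MO control library 1, and its S31A ratio -0.87 without S31A control library 1, while leaving out library 1 or 2 of the injected sample gave -2.30 or -0.50.

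With MO the other genes past 2-fold without overlap were Cd2bp2 (log2 1.25) and Luc7l2 (1.04) upwards and Rnpc3 (-2.05), Lsm6 (-1.65), Lsm3 (-1.29) and Hnrnpd (-1.10) downwards. Leaving out 1 library took Cd2bp2 to 0.96 (MO control library 1), Luc7l2 to 0.87 or 0.90 (MO injected library 2 or MO control library 2), Lsm3 to -0.83 (MO injected library 1) and Hnrnpd to -0.54 or -0.81 (MO injected library 1 or MO control library 2), all under 2-fold. Rnpc3 and Lsm6 stayed past 2-fold whichever library was left out. Without MO injected library 2 Lsm6, Lsm3 and Hnrnpd were at -2.44, -1.93 and -1.90. With total counts alone Luc7l2 was at 0.93. Lsm3 and Lsm6 belong to the Lsm ring of the U6 particle, of whose 7 genes 3 were measured. With S31A they were Puf60 (3.15), Gemin6 (1.03) and Srpk1 (1.01) upwards and Acin1 (-2.70), Gemin7 (-2.004), Gpatch1 (-1.34) and Sart1 (-1.12) downwards. Leaving out 1 library took Srpk1 to 0.28 or 0.97 (S31A injected library 1 or S31A control library 1), Gemin6 to 0.81 or 0.95 (S31A injected library 2 or S31A control library 2) and Sart1 to -0.46 or -0.89 (S31A injected library 1 or S31A control library 2), under 2-fold, and Sart1 was at -2.17 without S31A injected library 2. With total counts alone Gemin6 and Srpk1 were at 0.94 and 0.91, and Srpk1 was at 0.86 from the mean of log2 CPM. Gemin7 was at -1.19 without S31A control library 2, and Puf60 ran from 1.85 to 5.49 over left-out libraries. Puf60 helps U2AF at the 3' splice site, and its S31A injected libraries held 29.8 and 8.56 CPM against 4.205 and 0.352 CPM in the control. Acin1, an exon junction complex partner, read 48.1 and 28.05 CPM in the S31A control and 5.46 and 5.99 CPM in the S31A injected libraries.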

How the data were processed

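cDNA from zygote total RNA was amplified by PCR and made into libraries with a NEBNext kit, per the labels' protocols. Reads were handled with FastQC, Bowtie2, featureCounts and DESeq2 on mm10, per the submitters' processing notes; versions, annotation, strand and multiple-match settings are not given in the sources used here. Raw counts per gene were deposited beside gene lengths in bases, per the file headers, and 0 per-sample columns were left out. Counts of the 2 libraries of each sample were summed and scaled with TMM (edgeR 4.0.16, R 4.3.3). Ratios used a prior count of 2 and genes reaching 10 CPM in a sample of the pair, with exact 95% Clopper-Pearson intervals. No source used here names molecular identifiers, so counts may include PCR duplicates. edgeR's quasi-likelihood test and DESeq2 1.42.0 were run over libraries. Only the edgeR test was checked on simulated counts, and DESeq2 was not. With no stated separate cultures or animals, the p-values of both speak of the spread among libraries alone. Copies were found with BLAST+ 2.17.0 in GENCODE M21, where all 46 symbols were found, 45 with the deposited coordinates. Values in every library were printed for members at least 2-fold apart after an injection, the 6 highest per kilobase, the largest ratio of each role group and the 6 steadiest. Copies, Prpf31, Prpf39, Prpf4, Prpf4b and the genes named between controls were chosen after their values were seen. Of other splicing genes, those 2-fold apart without overlap were named, up to 12 per experiment. The members and lists were chosen with earlier results of these data known. Alternatives covered scaling, filter, prior count, single libraries, the mean of log2 values, copies, the fit's groups and a replicate block.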

Additional observations from a re-analysis of the deposited data

How the results depend on the processing

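With MO, 2 members were at least 2-fold higher and 2 lower. These counts were 4 and 6 with a filter of 1 CPM, beside 16.7% and 24.3% of all genes. They were 0 and 1 with 50 CPM, beside 8.67% and 7.03%. From the mean of log2 CPM or with copies added 1 was higher, beside 8.66% or 11.2%. Leaving out each library gave 1 to 3 higher, 2 to 5 lower and a median log2 ratio of -0.2262 to 0.3532. Of all genes 7.99% to 16.8% were then higher and 11.98% to 22.7% lower. With S31A, 2 were higher and 1 lower. A filter of 1 CPM gave 6 higher, beside 22.3% of all genes. A filter of 50 CPM gave 1 higher and 0 lower, beside 8.02% and 7.38%, and a median of 0.2842. There were 2 lower with total counts alone, beside 18.1%, and 3 with the mean of log2 CPM or with copies added, beside 18.4% or 16.2%. Leaving out each library gave 3 to 4 higher, 1 to 4 lower and a median of -0.1163 to 0.2904. Of all genes 15.3% to 20.4% were then higher and 18.6% to 21.1% lower. Between controls, 2 were higher and 4 lower, against 8 lower with 1 CPM, beside 29.1% of all genes. With 50 CPM there were 0 higher and 1 lower, beside 8.25% and 10.03%. Leaving out each library gave 2 to 5 higher, 4 to 7 lower and a median of -0.2333 to 0.3313. Of all genes 15.93% to 17.01% were then higher and 16.67% to 21.91% lower. Prpf8 with S31A reversed to -0.1293 without S31A injected library 1 and was 2.5765 without library 2. Snrpe between controls reversed to 0.7971 without MO control library 1 and was -1.6465 without library 2. The spread within samples at 50 CPM was 0 members 2-fold apart in the MO control, 3 in the MO injected, 3 in the S31A control and 2 in the S31A injected sample. The share of all genes was not computed for this spread at 50 CPM, so these counts stand without a background. Scaling by total counts alone moved the median of all genes from 0.03 to -0.09 with MO and from 0.02 to -0.09 with S31A. The causes were not tested, other than that a higher filter holds fewer genes.

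Library numbers did not pair the samples (correlations of deviations -0.059 to 0.086). With the library number as a replicate block, 0 members passed in any comparison, as without it, and Prpf18 had an adjusted p of 0.480 for S31A. DESeq2 passed 1 member for S31A, Prpf18 (adjusted p = 0.000526), beside 4.41% of all genes; over the edgeR alternatives its adjusted p ran from 0.253 to 0.795. Depth limits the low members: 3 counts were worth 0.230 to 0.493 CPM in a library.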
